A study of Mus musculus with 12 samples.

Results

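The respiratory chain subunit genes were described in both comparisons of this mouse RNA-seq series. They encode the subunits of complexes I to IV of the inner mitochondrial membrane and of ATP synthase, called complex V below. Members were chosen by name: the Nduf subunit series, Sdha to Sdhd, the Uqcr, Cox4 to Cox8 and Atp5 genes, and the 13 subunits encoded by mitochondrial DNA. This gave 100 of 22274 rows in the tumor table and 98 of 19496 in the macrophage table, of which 95 genes were in both. A single tumor member, Dmac2l, matched only through an older Atp5 name, and a further row named Atp5o was at 0 counts in every library. Gene names follow the tables, which use the older symbols of ATP synthase (Atp5a1, Atp5g1 and so on).

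Complexes I to IV pass electrons from NADH and succinate to oxygen through coenzyme Q and cytochrome c, and complexes I, III and IV pump protons, whose return through ATP synthase makes ATP. A few core subunits of complexes I, III, IV and V are made inside the organelle from its own DNA, which is read as long joint transcripts, while complex II and all other subunits are nuclear-encoded and imported. In macrophages, LPS and IFN-γ are known to shift metabolism from respiration towards glycolysis, and complexes I and II are known to take part in inflammatory signalling.

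The first comparison was between subcutaneous MC38 tumors with a short hairpin against Chrebp (shChrebp, labelled Chrebp knockdown) and those with a control hairpin (shCtrl in the titles, shNC in the protocols, genotype WT), 3 libraries each. MC38 is a colon adenocarcinoma line, and both kinds of cell were grown under the skin of C57BL/6 mice, whose age and sex the labels do not state. The second comparison was between cultured bone-marrow-derived macrophages (BMDMs) given choline at 200 µM for 24 h in fresh RPMI-1640, after 4 h with LPS and IFN-γ, and BMDMs labelled PBS, also 3 libraries each. The labels do not say outright that the PBS cells had the LPS and IFN-γ step, nor do they state that each library came from its own animal or culture. The p-values therefore cover the variation among these libraries alone, and that variation may be technical.

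Libraries held 16010568 to 24181897 counts in shChrebp, 15844794 to 19177328 in shCtrl, 34963505 to 35373188 reads with choline and 34996768 to 35396186 with PBS, the reads recovered from the deposited FPKM values (fragments per kilobase of gene, scaled to library size). Mlxipl, the gene of Chrebp, had 1, 1 and 2 counts in shChrebp and 3, 1 and 1 in shCtrl, so it does not check the labels at this depth. BMDMs held macrophage markers such as Adgre1 (75.5 to 83.3 FPKM with choline and 61.3 to 63.2 with PBS), while tumors held 0 to 1 count of Adgre1 in every library. Mrc1, of the same list of 7 markers, had only 0 to 1 read with choline and 2 with PBS in BMDMs. Epithelial markers (5 genes) summed to 10.8 to 11.7 normalised CPM (counts scaled to library size) in shChrebp and 8.85 to 58.9 in shCtrl. The highest value was shCtrl 1, so the members' call counts and median are also given without that library. Fibroblast markers summed to 83.1 to 89.8 CPM in shChrebp and 96.9 to 107 in shCtrl, but they were split. Pdgfra and Dcn were lower in shChrebp, while Pdgfrb was higher, at 43.1, 45.1 and 43.5 CPM against 36.7, 42.8 and 41.9 CPM. Thy1 and Lum were near 0. Macrophage markers summed to 14 to 16.7 CPM in shChrebp and 28 to 29.3 in shCtrl, of which Cd68 alone had 11 to 12.1 and 23.6 to 25.2 CPM. Ptprc, also of the macrophage list, had 4 to 11 counts in shChrebp and 5 to 7 in shCtrl. T cell, B cell and endothelial markers summed to at most 0.336, 0.392 and 1.51 CPM in shChrebp and 0.571, 0.361 and 3.17 in shCtrl. Neutrophil, dendritic cell and erythroid markers reached at most 5.07, 12 and 27.8 CPM in shChrebp and 5.77, 13.1 and 26.9 in shCtrl. The part of these markers in the tumor results was not tested, and in bulk samples fewer cells of a type and less RNA per cell cannot be told apart.

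A pair of sequence sets bears on the results and is shown first. A stretch of nuclear chromosome 1 (chr1:24611535-24616197 in GRCm38, minus strand) holds 7 annotated copies of mitochondrial genes at 99.7% identity or more. The copies of mt-Co2 (Gm28661), mt-Atp6 (Gm10925), mt-Co3 (Gm28437) and mt-Nd4l (Gm10222) are identical over 681, 678, 783 and 294 aligned bases, nearly the whole gene. The copies of mt-Nd4 and mt-Co1 cover 63.6% and 31.3% of the gene. For mt-Nd3 and its copy Gm28438, 1 of 345 compared bases differs (T3C, counted from 1 at the start of mt-Nd3). The first 60 bases of both, from the GENCODE vM21 transcripts, show that base in capitals:
mt-Nd3: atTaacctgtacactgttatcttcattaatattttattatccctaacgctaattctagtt
Gm28438: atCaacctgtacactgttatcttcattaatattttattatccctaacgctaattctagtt

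Reads from these genes and from such copies cannot be told apart, or only at single bases, so their levels are uncertain and depend on how reads with several positions were counted, which is not given in the sources used here. The copies themselves were not analysed here. Less similar copies on other chromosomes cover the whole of mt-Co1 (Gm13340 on chromosome 2, 97.6% identity) and of mt-Nd6 (Gm11408 on chromosome 4, 93.6%), and 99.8% of mt-Cytb (Gm11410 on chromosome 4, 92.9%). No annotated copy of 97% or more was found for mt-Nd1, mt-Nd2, mt-Nd5, mt-Nd6, mt-Cytb or mt-Atp8. The bases between the annotated chromosome 1 copies of mt-Co2 and mt-Atp6 were not compared with mt-Atp8.

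The other set is the promoters of the nuclear members that fell most with choline, which were picked by that fall. They are Uqcr11 (chr10:80406772-80407071), Uqcrh (chr4:116075021-116075320) and Atp5j2 (chr5:145191492-145191791), all on the minus strand of GRCm38.p6, from RefSeq. Each line runs from 250 bases before the gene's start to 50 bases after it, and capitals mark a match to CCGGAAG (the core bound by ETS factors such as GABP) in Uqcr11 and Uqcrh, to CGCANGCG (the core bound by NRF1, N being any base) in Uqcr11, and to AAGATGGC (bound by YY1) in Atp5j2:
Uqcr11: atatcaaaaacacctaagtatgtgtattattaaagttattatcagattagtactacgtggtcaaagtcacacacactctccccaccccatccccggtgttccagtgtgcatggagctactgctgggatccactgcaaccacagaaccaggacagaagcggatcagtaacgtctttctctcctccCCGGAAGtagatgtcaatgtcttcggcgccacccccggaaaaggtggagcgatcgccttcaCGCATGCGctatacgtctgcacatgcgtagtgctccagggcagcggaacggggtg
Uqcrh: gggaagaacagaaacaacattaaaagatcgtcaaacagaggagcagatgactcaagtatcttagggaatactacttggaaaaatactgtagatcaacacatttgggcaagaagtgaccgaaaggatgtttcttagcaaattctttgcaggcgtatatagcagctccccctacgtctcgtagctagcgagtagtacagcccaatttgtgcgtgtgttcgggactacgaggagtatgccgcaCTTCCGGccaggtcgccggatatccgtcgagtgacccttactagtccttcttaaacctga
Atp5j2: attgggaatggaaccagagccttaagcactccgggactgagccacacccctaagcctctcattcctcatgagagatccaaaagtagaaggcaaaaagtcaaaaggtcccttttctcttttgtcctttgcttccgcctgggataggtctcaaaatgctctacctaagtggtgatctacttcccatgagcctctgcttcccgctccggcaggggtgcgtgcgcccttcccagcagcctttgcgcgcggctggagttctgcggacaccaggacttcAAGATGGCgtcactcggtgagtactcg

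Counted from the gene's start, the matches begin at −66 and −5 in Uqcr11, at −10 in Uqcrh and at 24 in Atp5j2, and none overlaps another. RefSeq promoters were found for 68 of the 85 nuclear members of the macrophage table. On either strand, CCGGAAG was in 25.0% of these and in 9.93% of all 27025 promoters, CGCANGCG in 38.2% and 9.22%, and AAGATGGC in 14.7% and 3.19%. Members called lower with choline held CCGGAAG in 9 of 27 and members not called in 8 of 36. For CGCANGCG the counts were 11 of 27 and 15 of 36, and for AAGATGGC 3 of 27 and 5 of 36. These are matches of letters, and binding was not measured.

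In tumors, the subunits made from mitochondrial DNA tended to be higher in shChrebp, while the nuclear subunits moved little. Of 91 members tested, 15 were called higher and 6 lower (adjusted p under 0.05 by edgeR's quasi-likelihood test), where 18.6% and 19.7% of all 11780 genes tested were called. The members' shares were 16.5% and 6.59%, the first near the background and the second below it. The median log2 fold change was 0.03 over the members and 0.00 over all genes. By origin, 6 of 13 mitochondrially encoded members were called higher and 0 lower, with a median of 0.13, against 9 higher and 6 lower of 78 nuclear members, with a median of 0.02. The count of 0 lower is by edgeR, was also 0 at an unadjusted p under 0.05, and was 0 by DESeq2 and limma. Both negative values, mt-Nd2 and mt-Nd4l, were at −0.03 and −0.01.

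The count of higher calls depended on single libraries. Without shChrebp 1, 2 and 3 in turn it was 11, 10 and 12. That was 12.1, 11 and 13.2% of members against 16.5, 16 and 15.6% of all genes, below the background each time. It was 24 without shCtrl 1, or 26.4% of members against 18.5% of all genes in that fit. Without shCtrl 2 it was 8 (8.79% against 15.1%) and without shCtrl 3 it was 9 (9.89% against 16%). Of the fits that left out 1 library, the share lay above the background only without shCtrl 1. Lower calls without shCtrl 1, 2 and 3 were 5, 4 and 7. These were 5.49, 4.4 and 7.69% of members against 17.9, 16.5 and 17% of all genes, below the background each time. The median over the members was 0.089 without shCtrl 1 and −0.026 without shCtrl 3. All changes were small, from −0.27 to 0.42 on the log2 scale, and the 70 members not called lay between −0.19 (Dmac2l) and 0.38 (mt-Nd3) with a median SE of 0.07.

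**Figure D1:**
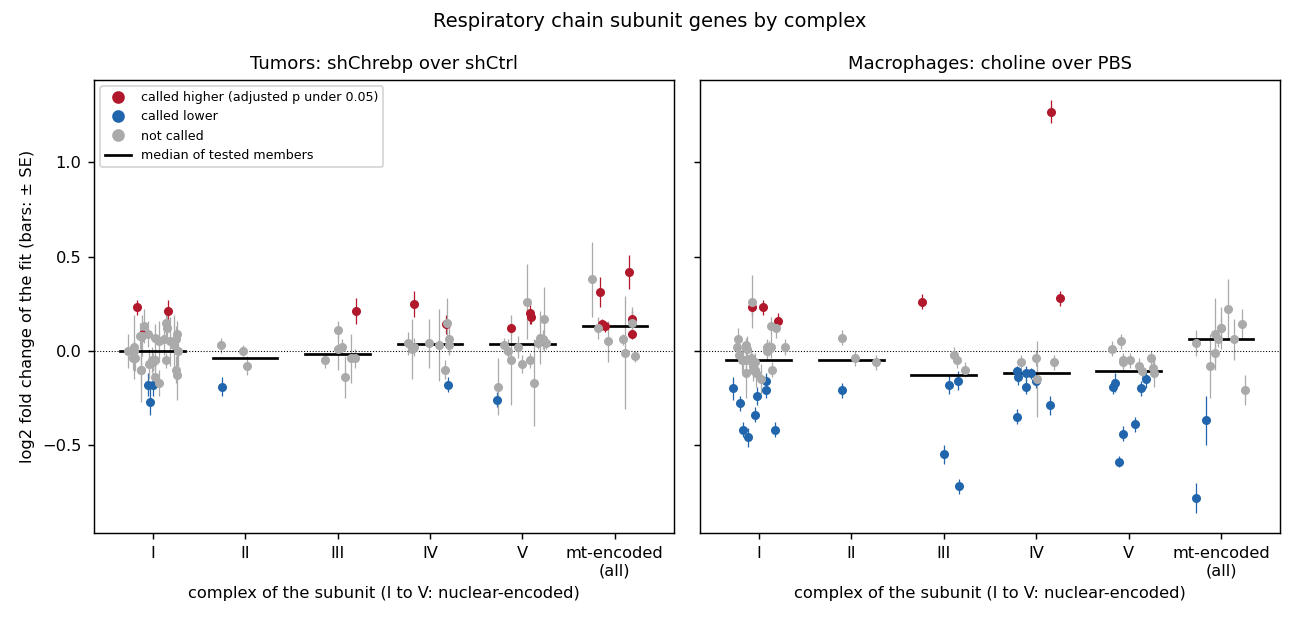
Log2 fold change (vertical axis, points; bars are ± SE) of every tested subunit gene by complex, for shChrebp over shCtrl tumors (left) and choline over PBS macrophages (right). Red and blue mark genes called higher and lower, black lines the median. Tumor values lie between −0.27 and 0.42, and in macrophages Cox6a2 at 1.27 and mt-Nd6 at −0.78 lie farthest from 0.

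The mitochondrially encoded subunits took 4.26, 4.5 and 4.29% of all counts in shChrebp 1, 2 and 3, and 4.18, 3.94 and 3.85% in shCtrl 1, 2 and 3. The groups did not overlap, but shCtrl 1 was close to the lowest shChrebp library. The nuclear subunits together took 0.684, 0.659 and 0.652% in shChrebp and 0.679, 0.649 and 0.629% in shCtrl, which overlap.

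The ATP synthase pair mt-Atp8 and mt-Atp6, whose reading frames overlap on a shared transcript, had the largest called changes. The protein of mt-Atp6 lines the proton channel and that of mt-Atp8 sits beside it. The gene mt-Atp8 was at 144, 129 and 124 CPM in shChrebp and at 109, 98.7 and 89.3 CPM in shCtrl. The fitted log2 change was 0.42 ± 0.09 (SE, n = 3 each). By edgeR its adjusted p was 0.0114, and over 12 alternatives it ranged from 5.46e-21 to 0.0451. All shChrebp libraries were above all shCtrl libraries.

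For mt-Atp6 the values were 3591, 3688 and 3405 CPM in shChrebp and 3146, 2873 and 2601 CPM in shCtrl, 0.31 ± 0.08 higher on the log2 scale. Its adjusted p by edgeR was 0.0417, and reached up to 0.135 when any shChrebp library or shCtrl 2 was left out. The groups again did not overlap. This gene has the identical chromosome 1 copy described above.

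Among the mitochondrially encoded catalytic subunits of cytochrome c oxidase, mt-Co2 and mt-Co3 rose by 0.14 ± 0.03 and 0.17 ± 0.04 (edgeR adjusted p = 0.00219 and 0.00124), while mt-Co1, which holds the oxygen-reducing centre, was at 0.06 ± 0.03 (adjusted p = 0.138). The cytochrome b gene mt-Cytb, the only complex III subunit made in the organelle, was at 3041, 3215 and 3071 CPM in shChrebp and at 3021, 2778 and 2733 CPM in shCtrl. Its log2 fold change of 0.13 ± 0.03 (adjusted p = 0.00491) held in 12 of 12 alternatives, and its most similar annotated copy is the one at 92.9% identity. Library shCtrl 1 lay just below the lowest shChrebp library.

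The 7 complex I genes of mitochondrial DNA gave a single call, mt-Nd1, higher by 0.09 ± 0.03 (edgeR adjusted p = 0.0234), which ended without shChrebp 2, shCtrl 2 or shCtrl 3 and with limma on FPKM, and held in 7 of 12 alternatives (adjusted p up to 0.206). The others lay between −0.03 (mt-Nd2) and 0.38 (mt-Nd3). The short gene mt-Nd3 was at 403, 377 and 366 CPM in shChrebp and at 373, 282 and 227 CPM in shCtrl, with an SE of 0.20 and an adjusted p of 0.232. Its shCtrl values spread more widely than its shChrebp values, and the groups overlapped.

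**Figure D2:**
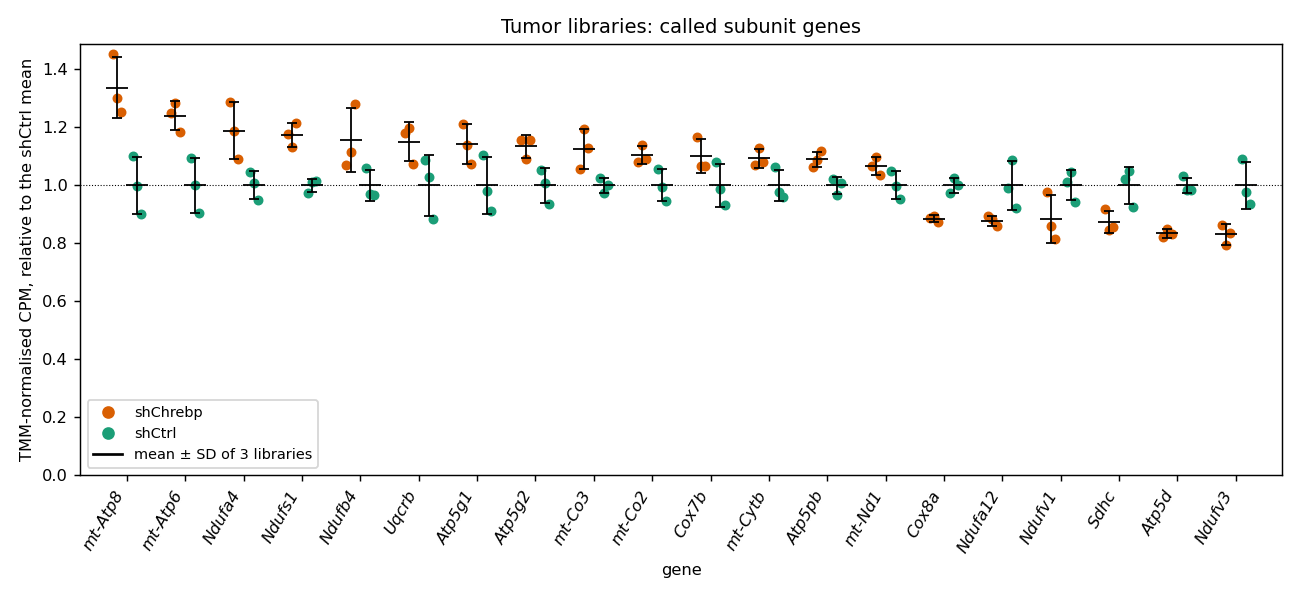
TMM-normalised CPM of 20 called subunit genes in each tumor library, divided by the shCtrl mean of the gene (vertical axis), with the mean ± SD of 3 libraries. Genes run from mt-Atp8, at a fitted fold of 1.34, to Ndufv3, at 0.83, and the shCtrl libraries of several genes on the left reach the lowest shChrebp library.

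Nuclear complex I members split evenly in tumors, with 3 called higher and 3 lower of 36 tested and a median of 0.00. Ndufs1, the largest core subunit and a carrier of iron-sulfur clusters, was at 99.8, 96.1 and 103 CPM in shChrebp and at 82.7, 85.7 and 86.1 CPM in shCtrl. The groups were well apart, and the log2 fold change was 0.23 ± 0.04 (edgeR adjusted p = 7.24e-05), held in 12 of 12 alternatives. Ndufb4, an accessory subunit of the membrane arm, was higher by 0.21 ± 0.06 (adjusted p = 0.00934), a call that ended in 4 of 12 alternatives (adjusted p up to 0.0888).

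In the NADH-binding module Ndufv1 and Ndufv3 were lower, but Ndufv2 was not called (−0.00 ± 0.05, edgeR adjusted p = 0.982). Ndufs1, given above, was higher. Ndufv1, which binds NADH and FMN, was at 68.2, 60.2 and 57.0 CPM in shChrebp and at 70.7, 73.0 and 65.9 CPM in shCtrl, with overlap between the groups, and was −0.18 ± 0.06 on the log2 scale (adjusted p by edgeR = 0.0214). The call stood in 5 of 12 alternatives and ended, among others, without shCtrl 1. Ndufv3, an accessory subunit of the same module, was at 31.9, 29.3 and 30.8 CPM in shChrebp and at 40.2, 36.0 and 34.5 CPM in shCtrl, without overlap. Its log2 fold change was −0.27 ± 0.07 (adjusted p = 0.00185), and the call ended only with limma on FPKM (adjusted p up to 0.0827).

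Ndufa12, an accessory subunit of the matrix arm, was at 33.5, 33.1 and 32.2 CPM in shChrebp and at 37.1, 40.8 and 34.6 CPM in shCtrl. Its log2 fold change was −0.18 ± 0.06 (edgeR adjusted p = 0.0247), and the call held in 5 of 12 alternatives, with an adjusted p up to 0.21.

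Complex II, which oxidises succinate and feeds coenzyme Q, had 1 call among 4 members. Sdhc, a membrane anchor, was at 74.8, 69.1 and 69.8 CPM in shChrebp and at 83.3, 85.7 and 75.6 CPM in shCtrl, with the lowest shCtrl library just above the highest shChrebp library. The log2 fold change was −0.19 ± 0.05 (edgeR adjusted p = 0.00261, up to 0.054 with limma on FPKM). The catalytic flavoprotein Sdha was at 218, 224 and 217 CPM against 213, 220 and 225 CPM and the iron-sulfur subunit Sdhb at 70.6, 72.5 and 67.7 CPM against 71.6, 77.0 and 74.7 CPM, with log2 fold changes of 0.00 ± 0.03 and −0.08 ± 0.05 (adjusted p = 0.975 and 0.179). Both pairs of groups overlapped.

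In nuclear complex III, 1 of 8 members was called. Uqcrb, which lies beside the quinone site, was at 70.0, 71.1 and 63.8 CPM in shChrebp and at 64.5, 61.1 and 52.4 CPM in shCtrl, with overlap, a log2 change of 0.21 ± 0.07 (edgeR adjusted p = 0.0211) and the call held in 7 of 12 alternatives. The core protein Uqcrc1 was at 144, 152 and 153 CPM against 153, 141 and 150 CPM, and the Rieske iron-sulfur protein Uqcrfs1 at 58.9, 61.2 and 63.2 CPM against 66.4, 60.4 and 61.2 CPM. Their log2 fold changes were 0.02 ± 0.04 and −0.04 ± 0.05, neither called.

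Complex IV had 2 nuclear members called higher and 1 lower of 12 tested. Ndufa4, once placed in complex I by name and now known as a complex IV subunit, was at 41.4, 38.2 and 35.1 CPM in shChrebp and at 33.6, 32.4 and 30.5 CPM in shCtrl. Its groups did not overlap, and the log2 fold change of 0.25 ± 0.07 (edgeR adjusted p = 0.00278) held in 12 of 12 alternatives. Cox8a, the ubiquitous form of subunit 8, was at 124, 125 and 122 CPM in shChrebp and at 136, 143 and 140 CPM in shCtrl, a log2 fold change of −0.18 ± 0.04 (adjusted p = 4.18e-04), also held in 12 of 12. Cox7b was higher by 0.14 ± 0.05 (adjusted p = 0.0329), a call that ended in 6 of 12 alternatives.

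The regulatory subunit Cox4i1 was at 235, 221 and 219 CPM in shChrebp and at 241, 218 and 208 CPM in shCtrl, and Cox5a at 65.8, 50.9 and 49.5 CPM against 61.9, 55.2 and 48.4 CPM. Neither was called (log2 fold changes 0.02 ± 0.05 and 0.01 ± 0.16). The 25 tested nuclear members under 600 bases summed to 992, 896 and 857 CPM in shChrebp 1, 2 and 3 and to 997, 930 and 845 CPM in shCtrl 1, 2 and 3. Their median SE was 0.11, against 0.06 for the 53 longer ones, so small changes of short members were less detectable.

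The tissue-specific complex IV forms were scarce in tumors. Cox8b, Cox8c and Cox7b2 were at 0 counts in every library, and Cox6b2, Cox4i2, Ndufa4l2, Cox6a2 and Cox7a1 averaged from 0.167 to 6.67 counts a library. None of them was tested. Cox6a2 made up 0.335 ± 0.150% of the summed FPKM of Cox6a1 and Cox6a2 in shChrebp and 0.314 ± 0.0655% in shCtrl (SD, n = 3 each).

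In ATP synthase, 3 nuclear members were called higher and 1 lower of 18 tested. Atp5d, the delta subunit of the central stalk, was at 81.3, 84.1 and 82.2 CPM in shChrebp and at 102, 97.3 and 97.4 CPM in shCtrl. These groups were clearly apart, with a log2 change of −0.26 ± 0.04 (edgeR adjusted p = 1.00e-05), held in 12 of 12 alternatives. Of the 3 genes for the ring subunit c, 2 were higher: Atp5g2 at 158, 149 and 158 CPM against 144, 138 and 128 CPM (0.18 ± 0.04, adjusted p = 7.81e-04) and Atp5g1 by 0.20 ± 0.06 (adjusted p = 0.0173, ended in 5 of 12 alternatives). The third, Atp5g3, was at 113, 99 and 87 CPM against 108, 91.8 and 85.2 CPM (0.07 ± 0.14).

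Atp5pb, a peripheral stalk subunit, was higher by 0.12 ± 0.03 (edgeR adjusted p = 0.00528), a call that ended without shCtrl 2 (adjusted p = 0.0553). The catalytic head subunits Atp5a1 and Atp5b, of which Atp5b was the most abundant nuclear member in tumors at 590 ± 3.71 FPKM in shChrebp and 572 ± 6.43 FPKM in shCtrl, were both at 0.04 ± 0.03 and not called. Outside the members, Atpif1, the inhibitor of ATP hydrolysis by this enzyme, was at 36.7, 32.2 and 28.4 CPM in shChrebp and at 43.1, 41.0 and 39.6 CPM in shCtrl, without overlap, a log2 fold change of −0.34 ± 0.07 (adjusted p = 6.52e-04).

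In macrophages, of 94 members tested, 31 were called lower and 6 higher (adjusted p under 0.05 by limma), where 29.2% and 28.2% of all 10028 genes tested were called. The 33.0% called lower was thus near the background, whereas the 6.38% called higher was below it. The median log2 fold change was −0.06 over the members and 0.00 over all genes tested, with 65 members below 0 and 29 above, and the 57 members not called lay between −0.21 (mt-Nd1) and 0.26 (Ndufs6b). Calls concerned nuclear genes: 29 lower and 6 higher of 81, with a median of −0.08, against 2 lower and 0 higher of 13 mitochondrially encoded genes, with a median of 0.06. The 4 members under the filter were Cox4i2, Cox7b2, Ndufa4l2 and Ndufb4c.

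By complex, nuclear members were called lower in 9 of 38 (complex I), 1 of 4 (II), 4 of 8 (III), 8 of 14 (IV) and 7 of 17 (V), and higher in 3, 0, 1, 2 and 0. The counts of 0 higher, those of complexes II and V and of the mitochondrially encoded genes, are by limma, and were also 0 at an unadjusted p under 0.05 and by edgeR and DESeq2 on recovered reads. Summed over each complex, the level per length was 899 ± 3.21 FPKM with choline and 1048 ± 42.5 with PBS in complex III, 2636 ± 37.8 and 2838 ± 84.3 in complex IV, and 3129 ± 43.0 and 3411 ± 103 in complex V (SD, n = 3 each). In each of these 3 complexes the choline libraries were all below the PBS libraries. Complex II did so narrowly, at 421, 431 and 425 FPKM with choline and 440, 458 and 433 with PBS. Such sums can rest on a few members. In complex III, Uqcrh averaged 209 FPKM with choline and 305 with PBS, and Uqcr11 48 and 79.1. Uqcrb averaged 153 and 159 there, and Uqcrq 109 and 90.9. Complex I summed to 2634, 2583 and 2523 FPKM with choline and to 2667, 2726 and 2553 with PBS, which overlap.

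Among nuclear complex I members, Ndufv3 of the NADH-binding module had the largest decline. It was at 20.6, 21.3 and 20.2 FPKM with choline and at 28.4, 30.5 and 26.9 FPKM with PBS, a log2 fold change of −0.46 ± 0.05 (SE, limma adjusted p = 6.03e-05). Ndufv2, an iron-sulfur core subunit, was at 45.9, 43.4 and 45.7 FPKM against 62.2, 60.6 and 57.5 FPKM, at −0.42 ± 0.04 (adjusted p = 3.57e-05). Both were far apart between groups, but their partner Ndufv1 was at 57.6, 57.3 and 54.5 FPKM against 56.1, 59.2 and 55.8 FPKM, at −0.02 ± 0.04 (adjusted p = 0.767).

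Of the other nuclear members, Ndufb10, Ndufa8, Ndufc1 and Ndufs3 fell by 0.42, 0.34, 0.28 and 0.24 on the log2 scale. The first 3 are accessory subunits and Ndufs3 a core one. A further 3 accessory subunits rose. Ndufs4, needed for a stable matrix arm, was at 55.3, 54.8 and 53.2 FPKM with choline and at 47.4, 48.1 and 44.0 FPKM with PBS, at 0.23 ± 0.04 (limma adjusted p = 0.00171). Ndufc2 rose by 0.23 ± 0.04 and Ndufa9 by 0.16 ± 0.04 (adjusted p = 7.24e-04 and 0.00602). These opposite moves within 1 complex were beyond the spread between libraries in each case and held in 12 of 12 alternatives.

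Ndufs1 gave no call in macrophages, at 59.4, 55.0 and 57.3 FPKM with choline and at 63.7, 60.3 and 59.6 FPKM with PBS (−0.10 ± 0.04, limma adjusted p = 0.0867). The paralogs Ndufb4b, Ndufb4c and Ndufs6b, which are in the macrophage table alone, were at 0.0581 to 5.72 FPKM with choline and 0.465 to 4.7 with PBS, and reads shared with Ndufb4 or Ndufs6 make these levels uncertain. In complex II, Sdhb fell by 0.21 ± 0.04 on the log2 scale (adjusted p = 0.00264), to 82.5, 84.4 and 79.7 FPKM with choline against 94.5, 100 and 91.0 FPKM with PBS. Sdha, its flavoprotein partner, was at 92.1, 88.9 and 89.4 FPKM against 87.3, 87.5 and 83.3 FPKM, at 0.07 ± 0.04 (adjusted p = 0.148).

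Complex III held the largest nuclear decline, that of Uqcr11. Uqcr11, the smallest subunit of the complex, was at 49.5, 46.9 and 47.5 FPKM with choline and at 77.1, 80.1 and 80.2 FPKM with PBS. The fold was 0.61, a log2 fold change of −0.72 ± 0.04 (limma adjusted p = 6.51e-07). Uqcrh, the hinge protein beside cytochrome c1, was at 203, 219 and 204 FPKM against 299, 325 and 291 FPKM, at −0.55 ± 0.05 (adjusted p = 1.25e-05).

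In contrast, Uqcrq, which lies near cytochrome b, was at 112, 106 and 108 FPKM with choline and at 88.8, 95.8 and 88.0 FPKM with PBS, at 0.26 ± 0.04 (limma adjusted p = 6.35e-04). The core protein Uqcrc1 fell by 0.18 ± 0.05 on the log2 scale, to 84.0, 83.9 and 78.7 FPKM with choline against 92.7, 98.4 and 89.1 FPKM with PBS (adjusted p = 0.0074). The Rieske protein Uqcrfs1 was at 74.5, 75.4 and 75.3 FPKM against 77.2, 78.5 and 73.5 FPKM, with overlap (−0.02 ± 0.04). Cyc1, the cytochrome c1 of this complex, which the naming rule leaves out, was at −0.13 ± 0.06 (adjusted p = 0.0818), and in tumors it was higher by 0.12 ± 0.04 (edgeR adjusted p = 0.0323, held in 8 of 12 alternatives).

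**Figure D3:**
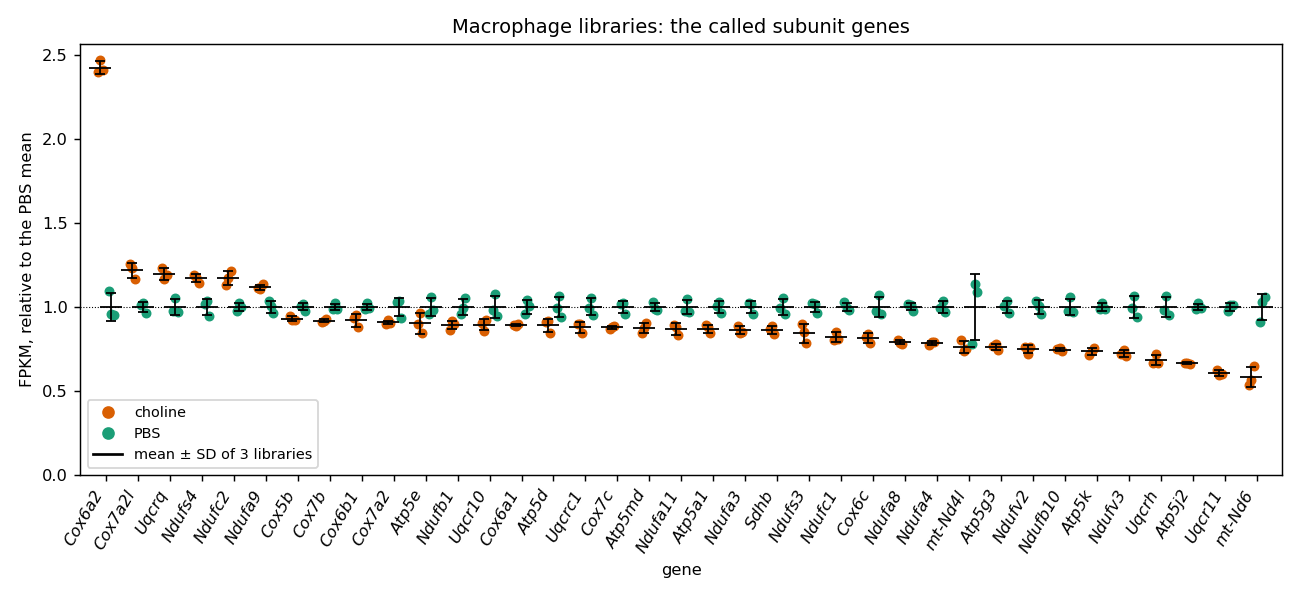
FPKM of the 37 called subunit genes in each macrophage library, divided by the PBS mean of the gene (vertical axis), with the mean ± SD of 3 libraries. Cox6a2 stands alone on the left, at 20.5 to 21.1 FPKM with choline and 8.13 to 9.36 with PBS, and mt-Nd6 on the right, at 145 to 175 and 246 to 285.

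In complex IV, 8 of 14 nuclear members were called lower and 2 higher, Cox6a2 and Cox7a2l. Cox6a2, known as the heart and skeletal muscle form of subunit 6a, was at 20.5, 21.1 and 20.6 FPKM with choline and at 9.36, 8.18 and 8.13 FPKM with PBS. This was the largest change among the tested members of both comparisons, 2.41-fold, a log2 fold change of 1.27 ± 0.06 (limma adjusted p = 3.29e-07), and it lay between 1.19 and 1.34 in all 12 alternatives. The ubiquitous form Cox6a1 fell by 0.16 ± 0.04 on the log2 scale, to 187, 185 and 188 FPKM with choline against 200, 217 and 210 FPKM with PBS (adjusted p = 0.00437).

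Cox6a2 thus made up 9.87, 10.2 and 9.89% of the summed FPKM of the pair with choline and 4.47, 3.63 and 3.72% with PBS. Cox6a1 remained the main form in every library. The skeletal muscle markers Ckm, Acta1, Myh4, Myh1 and Mb, of which 3 are in the macrophage table, summed to 0.105 to 0.247 FPKM with choline and 0.0424 to 0.0983 with PBS, near 0 in both groups.

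Cox7a2l, also known as Scaf1, is described as a factor that can join complexes III and IV into a supercomplex. Neither supercomplexes nor the allele of this gene in these cells were examined here. Cox7a2l was at 240, 236 and 224 FPKM with choline and at 194, 196 and 185 FPKM with PBS. Its log2 fold change was 0.28 ± 0.04 (limma adjusted p = 2.05e-04). Cox7a2, the complex IV subunit it resembles, fell by 0.14 ± 0.04 on the log2 scale, to 217, 222 and 218 FPKM with choline against 248, 250 and 226 FPKM with PBS (adjusted p = 0.0187), a call that ended in 3 of 12 alternatives, with an adjusted p up to 0.0829.

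Cox7a2l therefore made up 51.3 ± 0.818% of the summed FPKM of Cox7a1, Cox7a2 and Cox7a2l with choline and 44.0 ± 0.568% with PBS (SD, n = 3 each). Cox7a1, the muscle form, stayed at 1.98 to 3.49 FPKM with choline and 2.33 to 3.15 with PBS (adjusted p = 0.527). In tumors the share of Cox7a2l was 49.1 ± 0.926% in shChrebp and 51.3 ± 1.48% in shCtrl.

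Other complex IV members mostly fell. Ndufa4 was at 221, 227 and 226 FPKM with choline and at 285, 297 and 277 FPKM with PBS, at −0.35 ± 0.04 (limma adjusted p = 3.06e-05). Its paralog Ndufa4l2, known as a hypoxia-induced form, was at 0 to 0.173 FPKM with choline and 0.0985 to 0.173 with PBS and was not tested. Cox6c, Cox7c, Cox6b1, Cox7b and Cox5b fell by 0.29, 0.19, 0.12, 0.12 and 0.11 on the log2 scale, the last 3 with calls that ended in 3, 1 and 4 of 12 alternatives.

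Cox4i1 was at 452, 445 and 440 FPKM with choline and at 473, 463 and 440 FPKM with PBS, Cox5a at 55.9, 56.2 and 54.9 FPKM against 58.3, 59.4 and 57.0 FPKM, and Cox8a at 193, 203 and 188 FPKM against 207, 209 and 193 FPKM. None was called, with log2 fold changes of −0.04 ± 0.04, −0.06 ± 0.04 and −0.06 ± 0.04. Cox4i2, the form used at low oxygen, was at 0.572 ± 0.287 FPKM and 0.533 ± 0.0604 FPKM (SD, n = 3 each), below the filter.

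**Figure D4:**
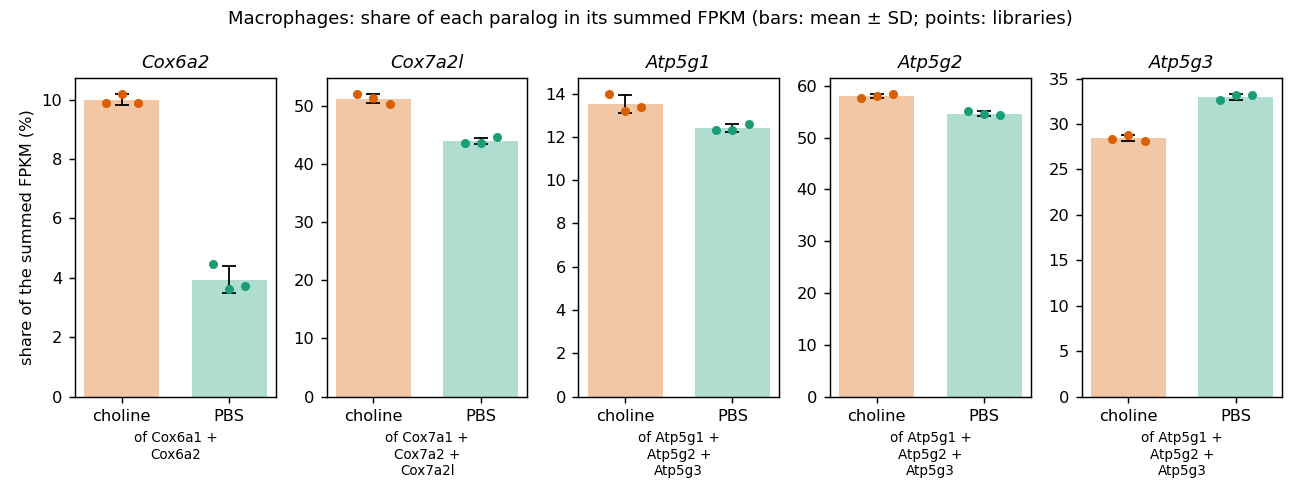
Share of the summed FPKM of its family (vertical axis, percent, from 0) held by each paralog in macrophages, choline left of PBS. Bars are means, error bars SD and points the 3 libraries: Cox6a2 holds 9.99% with choline and 3.94% with PBS, and Atp5g3 holds 28.4% and 33.0%.

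In ATP synthase, 7 of 17 nuclear members were called lower and 0 higher. By sign alone, 15 had a log2 fold change below 0 and 2 above. Atp5j2, the membrane subunit f, was at 149, 149 and 147 FPKM with choline and at 220, 228 and 221 FPKM with PBS, at −0.59 ± 0.03 (limma adjusted p = 7.52e-07). Atp5k, the subunit e that joins ATP synthase dimers, was at 95.6, 98.6 and 101 FPKM against 132, 137 and 132 FPKM, at −0.44 ± 0.04 (adjusted p = 7.77e-06). In both, every choline library was well below every PBS library.

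The subunit c genes shifted within their family. Atp5g3 fell by 0.39 ± 0.04 on the log2 scale, to 103, 104 and 99.3 FPKM with choline against 134, 138 and 129 FPKM with PBS (limma adjusted p = 2.18e-05). Atp5g1 (50.7, 47.6 and 47.5 FPKM against 50.7, 50.9 and 48.9 FPKM) and Atp5g2 (208, 209 and 207 FPKM against 226, 226 and 211 FPKM) were not called, at −0.05 ± 0.04 and −0.09 ± 0.04. The share of Atp5g3 in the summed FPKM of the 3 was 28.4 ± 0.349% with choline and 33.0 ± 0.372% with PBS.

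The catalytic head subunits parted in macrophages: Atp5a1 was at 314, 310 and 298 FPKM with choline and at 355, 364 and 339 FPKM with PBS (−0.20 ± 0.04, limma adjusted p = 0.0016), while Atp5b was at 724, 719 and 701 FPKM against 718, 741 and 679 FPKM (0.01 ± 0.04, adjusted p = 0.914). Atp5md, Atp5d and Atp5e fell by 0.19, 0.17 and 0.15 on the log2 scale, the last 2 with calls that each ended in 4 of 12 alternatives. The inhibitor Atpif1 was at 0.01 ± 0.04 (adjusted p = 0.811).

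Of the mitochondrially encoded genes in macrophages, mt-Nd6 stood out. It is the only subunit gene on the light strand, and it was at 145, 152 and 175 FPKM with choline and at 246, 278 and 285 FPKM with PBS, without overlap. The fold was 0.58, a log2 fold change of −0.78 ± 0.08 (limma adjusted p = 3.64e-05), and it lay between −0.86 and −0.72 in the 12 alternatives. Because the use of strand in counting is not given, reads of mt-Nd6 and of RNA from the opposite strand cannot be told apart.

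The gene mt-Nd5, which lies next to mt-Nd6 on the other strand, was at 2148, 2288 and 2520 FPKM with choline and at 2107, 1895 and 2321 FPKM with PBS (0.14 ± 0.08, limma adjusted p = 0.155). Together the 13 genes took 3.38, 3.58 and 3.88% of reads with choline and 3.58, 3.34 and 3.97% with PBS, which overlap. In tumors mt-Nd6 was at 398, 413 and 387 CPM in shChrebp and at 436, 383 and 338 CPM in shCtrl, a log2 change of 0.05 ± 0.11 (edgeR adjusted p = 0.744).

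The other mitochondrial call in macrophages, mt-Nd4l, was at 23.6, 21.7 and 22.0 FPKM with choline and at 22.9, 33.4 and 32.0 FPKM with PBS, with overlap. Its log2 fold change was −0.37 ± 0.13 (limma adjusted p = 0.0335), and the call ended in 5 of 12 alternatives, with an adjusted p up to 0.108. It is among the genes with an identical nuclear copy.

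Levels of the mitochondrially encoded genes differed between the tables, and are given beside the chromosome 1 copies. Relative to mt-Co1 of the same library, mt-Co2 was lower by 54.8 to 69.4 times in macrophages and by 1 to 1.13 times in tumors. For mt-Co3 the ratio was 108 to 117 in macrophages and 1.47 to 1.64 in tumors, and for mt-Atp6 71.2 to 109 and 1.67 to 2.27. The short genes mt-Nd3, mt-Nd4l and mt-Atp8 were at 14.9 to 37.2 FPKM in macrophages and at 386 to 1162 FPKM in tumors.

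These 6 genes are the 5 with a nearly complete copy of at least 99% identity, and mt-Atp8, which lies between mt-Co2 and mt-Atp6. The gene mt-Co1 itself has the full-length copy at 97.6% identity. Among genes without a copy of at least 99% identity over nearly the whole gene, mt-Nd1 was 1.81 to 2.28 times below mt-Co1 in macrophages and 2.07 to 2.28 times in tumors, and mt-Cytb 2.06 to 2.40 and 3.31 to 3.63 times. For mt-Nd6 it was 35.6 to 70.8 and 10.6 to 13.3 times. The tables were normalised separately and differ in material as well as in processing, which cannot be told apart, and the part of the copies was not tested.

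**Figure D5:**
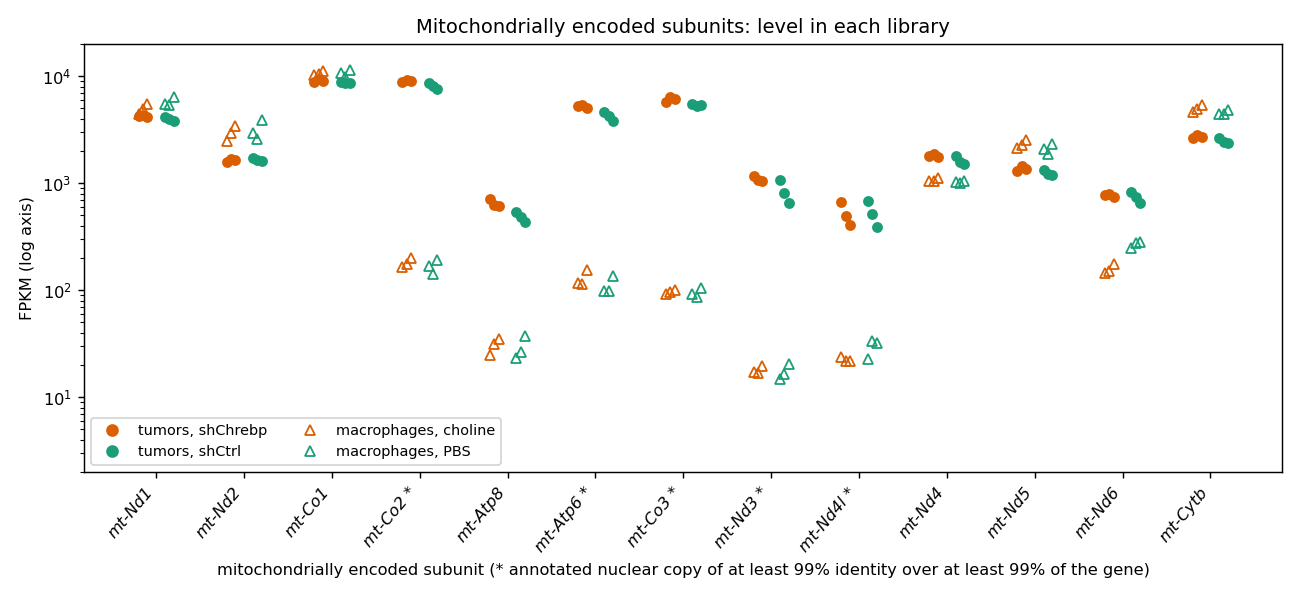
FPKM (log axis) of the 13 mitochondrially encoded subunits in each library, in the order of the mitochondrial genome, with tumors as filled circles and macrophages as open triangles. Asterisks mark genes with a nearly complete annotated nuclear copy of at least 99% identity. These and mt-Atp8 lie at 14.9 to 202 FPKM in macrophages, while mt-Co1 is between 8588 and 11496 FPKM in both materials.

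Set side by side, the comparisons shared few calls. They have no library in common. Of 90 members tested in both, Atp5d and Ndufv3 were called lower in both, at −0.26 and −0.27 in tumors and −0.17 and −0.46 in macrophages. Ndufa4 and Cox7b were higher in shChrebp tumors, by 0.25 and 0.14, and lower with choline, by −0.35 and −0.12. No member was called higher in both, and 37 were called in neither. For Atp5d the macrophage call ended in 4 of 12 alternatives.

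Around the subunits, genes of the same pathway were counted from lists of assembly factors, carriers, regulators and the tricarboxylic acid (TCA) cycle. In tumors 11 of 103 tested were called higher and 17 lower, against 18.6% and 19.7% of all genes. In macrophages 25 of 99 were called higher and 34 lower, against 28.2% and 29.2% of all genes. Of 20 complex IV assembly factors tested in macrophages 7 were called higher and 6 lower, and of 15 for complex I 4 and 5. These counts are near those shares of all genes.

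Higd1a, a hypoxia-induced complex IV factor, had the largest fall of the lists in macrophages, at 20, 19.6 and 19 FPKM with choline against 37.2, 34.2 and 37.5 FPKM with PBS (−0.89 ± 0.05, limma adjusted p = 6.72e-07). In tumors it was at 39.5, 31.8 and 33.2 CPM in shChrebp against 31.4, 26.5 and 23.9 CPM in shCtrl (0.35 ± 0.11, edgeR adjusted p = 0.0248). In macrophages Sco1, which delivers copper to complex IV, and Pet100 rose by 0.53 ± 0.09 and 0.40 ± 0.07, and Fmc1, an ATP synthase assembly factor, fell by 0.52 ± 0.08 on the log2 scale.

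Complex I factors called in both comparisons were Tmem126b, higher by 0.43 ± 0.08 in tumors and by 0.32 ± 0.07 in macrophages, and Foxred1, at −0.20 ± 0.07 in tumors, where its call held in 3 of 12 alternatives, and 0.47 ± 0.05 in macrophages. In tumors Cox18, which inserts mt-Co2 into the membrane, fell by 0.50 ± 0.10 on the log2 scale (edgeR adjusted p = 2.51e-04).

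For coenzyme Q, Coq9 was at 39.8, 36.4 and 36.5 FPKM with choline and at 24.7, 23.1 and 23.5 FPKM with PBS, at 0.66 ± 0.05 (limma adjusted p = 4.50e-06), and Coq10b rose by 0.45 ± 0.06. Pdss1, which makes the isoprenoid tail, fell by 0.54 ± 0.07 on the log2 scale. In that list 6 of 13 tested were called higher and 3 lower, against 28.2% and 29.2% of all genes. In tumors 2 of 14 were higher and 5 lower, against 18.6% and 19.7% of all genes. Coq10a was at 0.49 ± 0.12 and Coq6 at −0.38 ± 0.11 in tumors. The carrier Cycs was called in neither comparison (0.11 ± 0.06 in tumors, 0.07 ± 0.04 in macrophages).

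TCA cycle genes were called lower with choline in 8 of 13 and higher in 1, with a median of −0.14. Dld, the shared E3 enzyme of the cycle's oxoglutarate and of pyruvate dehydrogenase, was the exception, at 283, 299 and 317 FPKM against 205, 203 and 222 FPKM (0.51 ± 0.05, limma adjusted p = 2.10e-05). Suclg2 and Fh1 fell by 0.33 and 0.29 on the log2 scale. The share of 8 in 13 lies above the 29.2% of all genes. In tumors 2 of 13 were higher and 3 lower, against 18.6% and 19.7% of all genes.

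Ucp2, an inner membrane carrier, fell by 0.51 ± 0.04 on the log2 scale with choline, to 173, 170 and 161 FPKM against 242, 249 and 230 FPKM with PBS (limma adjusted p = 7.16e-06). The nucleotide exchanger Slc25a5 fell by 0.20 ± 0.03. In tumors Ucp2 was at 1.90, 2.08 and 1.74 CPM in shChrebp and at 5.39, 2.53 and 2.67 CPM in shCtrl, with shCtrl 1 far above the others. The tumor call of Ucp2 held in 7 of 12 alternatives and ended, among others, without shCtrl 1.

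Among regulators of mitochondrial gene expression in tumors, Lrpprc, which stabilises mitochondrial messenger RNA, was at 137, 142 and 148 CPM in shChrebp and at 124, 119 and 112 CPM in shCtrl, at 0.27 ± 0.04 (edgeR adjusted p = 5.19e-06). Polg, the mitochondrial DNA polymerase, rose by 0.21 ± 0.05. Tfam, which packages and transcribes mitochondrial DNA, fell by 0.18 ± 0.06 on the log2 scale. Their calls held in 10 and 7 of 12 alternatives, and that of Tfam ended, among others, without shCtrl 1. Lrpprc, Polg and Tfam gave the 3 calls among 15 genes tested. These 2 higher and 1 lower calls are below the 18.6% and 19.7% of all genes. With choline, 3 of 15 were higher and 4 lower, not above the 28.2% and 29.2% of all genes. Mterf3 was at 0.49 ± 0.08 and Tfam at 0.02 ± 0.05 (limma adjusted p = 0.802).

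The coactivator Ppargc1a, a main driver of mitochondrial biogenesis, was at 0 to 0.208 CPM in shChrebp, 0.157 to 0.444 CPM in shCtrl, and at or near 0 FPKM in all macrophages, and was not tested. Its relatives Ppargc1b and Pprc1 fell with choline by 0.37 ± 0.11 and 0.22 ± 0.05 on the log2 scale, and Esrra by 0.14 ± 0.05, a call of Esrra that held in 4 of 12 alternatives. In tumors Pprc1 fell by 0.24 ± 0.04 and Gabpa, the ETS-domain subunit of GABP, rose by 0.18 ± 0.04. Hif1a was at −0.11 ± 0.03 in tumors (edgeR adjusted p = 0.00751) and at 0.17 ± 0.05 in macrophages (limma adjusted p = 0.0103).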

How the data were processed

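RNA-seq was done on total RNA (TRIzol, VAHTS Universal V6 kit, per the labels' protocols). Per the submitters' processing notes, the build was GRCm39. Which aligner and counter were used, and whether strand was used, is not given in the sources used here. In the tumor table the authors deposited estimated counts (92.0% whole, rounded here) and FPKM per Ensembl gene, per the file headers; for macrophages they deposited FPKM per gene. Tumor rows were named through GENCODE vM21 (22219 of 22274 rows), macrophage rows by deposited symbol; both references describe GRCm38, so deposited values carry no coordinates here. Of 19498 macrophage rows, 2 without a name or broken over lines were left out. A pair of PBS columns shares 1 heading and has no replicate number (PBS a and b, given after PBS 1).

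Tumors were tested with edgeR 4.0.16 (quasi-likelihood F test, TMM, filterByExpr, robust, in R 4.3.3) and macrophages with limma 3.58.1 (trend, robust) on log2(FPKM + 0.1), a scale that understates the change of low genes. The macrophage filter kept genes that reached 1 FPKM in 3 or more libraries. Benjamini-Hochberg adjustment ran over all genes tested, at a threshold of 0.05 with no minimum fold. FPKM values came out as whole reads in 19496 of 19496 macrophage rows (within 0.1 reads), and these reads were used for count tests as alternatives (edgeR called 3079 genes higher and 3356 lower, DESeq2 1.42.0 2911 and 3108). CPM are TMM-normalised. Copies of mitochondrial genes were sought among GENCODE vM21 transcripts with BLAST 2.17.0 at 90% identity or more. The fits were also run on simulated counts with a single dispersion for all genes and far fewer changed genes than were called here. That run does not check scaling or false calls in these data.

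Members, lists and tests were chosen with earlier results of these data known. Values in every library are given for the 4 called members with the largest change in each direction (mean of at least 50 reads, groups not overlapping), for core subunits and for tissue-specific paralogs; up to 3 called genes are named of each pathway list. Other genes were chosen after their values were seen. Alternatives were other library scalings, tools, filters and pseudocounts, and leaving out each library. Values of 1 member are not reported here.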

Additional observations from a re-analysis of the deposited data

How the results depend on the processing

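No member that was called, and no called gene outside the members that was examined, changed the sign of its fold change in its 12 alternatives. All 6 higher calls and 23 of 31 lower calls in macrophages, and 7 of 15 higher and 2 of 6 lower calls in tumors, held in all 12 alternatives. The tumor higher calls that did so were mt-Atp8, mt-Co2, mt-Co3, mt-Cytb, Ndufa4, Ndufs1 and Atp5g2. Tumor lower calls were 6, and 3 with limma on log2(FPKM + 0.1) and on log2(FPKM + 1), where higher calls were 10 and 11. Leaving out 1 library gave 8 to 24 higher and 4 to 7 lower calls in tumors, and 6 to 10 higher and 25 to 38 lower calls in macrophages, where 10 higher calls came without PBS b. The cause was not tested. Of the called genes outside the members (the pathway lists with Atpif1, Cyc1, Hif1a and, in macrophages, Dmac2l), 11 of 31 in tumors and 38 of 61 in macrophages kept their call in all 12 alternatives. Coq6 and Hif1a in tumors kept it in 11 and 10, and Ppargc1b in macrophages in 10, ending without PBS 1 or PBS a. The DESeq2 Wald test gave 12 higher and 4 lower calls in tumors and, on recovered reads, 6 and 32 in macrophages.

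Over all genes tested, same-numbered tumor libraries correlated at 0.058, −0.064 and −0.025 in their deviations from the group means. The summed nuclear members under 600 bases nevertheless fell from library 1 to 3 in both groups. They were at 992, 896 and 857 CPM in shChrebp and at 997, 930 and 845 CPM in shCtrl. The main fit has no block, so it leaves such a shared decline in the SE. With replicate number as a block, 17 members were called higher and 7 lower. No paired analysis was possible for the macrophages because 2 PBS columns carry no number of their own. Tumor SEs reached 0.24 among nuclear members under 600 bases and 0.16 among the longer ones. The part of depth and of length in this was not tested.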
